A study of Mus musculus with 8 samples.

Results

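The integrins, laminins, and collagens were followed through the first hours of the serum-to-2i transition. These genes encode the trimeric proteins of the extracellular matrix and the dimeric receptors that hold cells to it. Members were all protein-coding genes of GENCODE M21 whose symbol carries the root of a collagen, laminin, or integrin chain followed by the chain's number or letter. There were 87 of them among the 37263 genes counted, of which 20194 were protein coding. They comprised 44 collagen, 11 laminin, and 27 integrin chains, and 5 genes that share the spelling but encode no chain (Col4a3bp, Itgb1bp1, Itgb1bp2, Itgb3bp, and Itgbl1). The rule uses names and biotypes and no measured value.

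RNA-seq was performed on E14, an ESC line of mouse strain 129/Ola that grows without feeder cells. Cells grown in serum with LIF were moved to 2i, a serum-free medium with LIF, the MEK inhibitor PD0325901, and the GSK3 inhibitor CHIR99021. RNA was taken 4, 16, 24, and 32 hr later, from 2i alone or from 2i with 17 µM vitC. Each of these 8 combinations was 1 library. Libraries from serum were not analysed here, so that the earliest point is 4 hr in 2i. The labels give the inhibitors at 1 and 3 mM and the study's methods give the same numbers in µM.

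Collagens are 3-stranded helices that assemble into fibrils, such as types I, III, and V, or into networks, such as type IV in basement membranes. Laminins are trimers of an alpha, a beta, and a gamma chain that polymerize on the cell surface and start a basement membrane. Integrins pair an alpha with a beta chain, bind laminin, collagen, or fibronectin outside the cell, and connect to actin inside it. Laminin is a standard substrate for mouse ESCs, and the early embryo makes laminin and type IV collagen before other matrix. VitC is the cofactor of the enzymes that hydroxylate proline and lysine in collagen chains, a step on the protein that RNA levels do not show.

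The libraries held from 12940716 to 18434932 counts in 2i and from 4753528 to 13157570 with vitC. Values are in CPM, counts scaled to the library total with TMM factors, and 3 counts, taken as the floor of a library, equal 0.163 to 0.631 CPM. Lane 8 held the 4 and 24 hr libraries and lane 7 those of 16 and 32 hr, which makes 24 hr against 4 hr and 32 hr against 16 hr comparisons within a lane. For 16 or 32 hr against 4 hr, time and lane cannot be told apart. Lars2 and the features whose counts follow it (called the Lars2 share here) took 0.0113% to 0.206% of the counts at 4 hr and in 2i at 16 hr, and 0.564% in 2i at 32 hr. In the 2i library at 24 hr and the vitC libraries at 16, 24, and 32 hr they took 4.21% to 7.11%. The 8 ESC markers examined summed to between 1864 and 2384 CPM in the 8 libraries, although single markers moved. By 32 hr Sox2, Tfcp2l1, Esrrb, and Dppa5a were higher and Pou5f1 and Zfp42 lower than at 4 hr. Thus 6 of 8 passed, beside 25.3% of all genes tested. Markers of primitive and parietal endoderm summed to 25.5 to 29.5 CPM in 2i and 21.4 to 41.4 CPM with vitC, and those of fibroblasts and mesenchyme to 18.4 to 28.6 and 19.2 to 37.7 CPM. The 5 trophoblast markers summed to 21.4 CPM in 2i and 22.1 CPM with vitC at 4 hr, and to 6.90 and 7.08 CPM at 32 hr. In such bulk samples, fewer cells of a type and less RNA per cell cannot be told apart.

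Relative to gene length, the most abundant of these transcripts was Itgb1, the beta chain shared by the laminin, collagen, and fibronectin receptors, with a mean over the 8 libraries of 160.0 RPKM, which divides CPM by the exon length in kilobases. The next by mean RPKM were Lamc1 at 42.5, Col18a1 at 42.5, Itga6 at 27.9, Col1a1 at 24.6, and Lama5 at 22.0. The set thus included a gamma and an alpha chain of laminin, the alpha chain of its ESC receptor, and a basement membrane collagen. At the other end, 21 members did not reach 1 CPM in at least 2 libraries and were not tested. Of those, 10 had at most 3 counts in every library, and Itgb2l and Itgax were listed at 0 throughout.

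**Figure D1:**
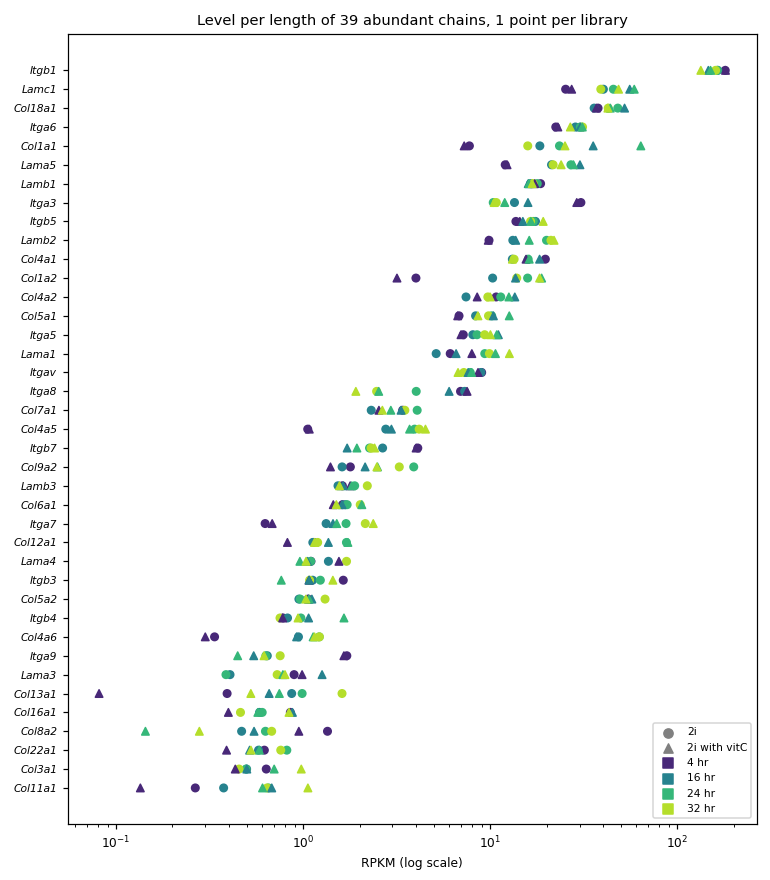
Level per length, in RPKM on a log axis, of 39 abundant chains, ordered by mean, with 1 point per library, circles for 2i, triangles for 2i with vitC, and colors for the 4 times. Itgb1 stands highest with a mean of 160.0 RPKM and narrow spread, and for Col1a2, Col4a5, Itga7, and Col4a6 both 4 hr points lie to the left of the rest.

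The summed levels of the families had different courses. The summed collagen level was 794, 864, 1165, and 1010 CPM in 2i at 4, 16, 24, and 32 hr, and 698, 1259, 1456, and 1106 CPM with vitC. For the laminins it was 749, 961, 1156, and 1055 CPM in 2i and 778, 1209, 1251, and 1185 CPM with vitC. For the integrins it was 1409, 1311, 1272, and 1253 CPM in 2i and 1410, 1250, 1229, and 1107 CPM with vitC. In both treatments each later library was above its 4 hr library for collagens and laminins and below it for integrins. These sums have no test and lean on the few most abundant chains.

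To ask which chains changed with time, an additive model of time and treatment was fitted with edgeR to all 8 libraries. Its error, on 3 residual degrees of freedom, measures how far the treatments depart from parallel time courses, because there were no replicate cultures. Between 4 and 24 hr, 21 of the 66 tested members passed an adjusted p-value of 0.05, against 20.5% of all 14931 genes tested. Of them, 15 rose (11.5% of all genes did) and 6 fell (8.98% of all genes). Among the 32 tested collagens 9 rose and 2 fell, with a median log2 fold change of 0.30. Among the 9 tested laminins 4 rose and none fell (median 0.12), and among the 21 tested integrins 2 rose and 4 fell (median -0.20). The median over all genes tested was 0.01.

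The earlier and later comparisons against 4 hr use the same 4 hr libraries and are therefore not independent of this one. At 16 hr, 15 members passed, 10 higher and 5 lower, where 16.4% of all genes did. At 32 hr, 20 passed, 12 higher and 8 lower, where 25.3% of all genes did. In all, 25 members passed in at least 1 comparison, and 13 passed at all 3 later times, 10 of them higher and 3 lower. The shares of all genes that did so are not given here, so that these counts cannot be read as particular to the members. Every call had the same direction in the 2i and in the vitC libraries. The model favors this, because courses that part between the treatments raise its error, so that it is no separate support. When the fit was corrected for the GC content and the length of the genes, the calls at 16, 24, and 32 hr split into 8 higher and 7 lower, 12 and 9, and 11 and 13. That correction moved the median at 24 hr to 0.14 for collagens, -0.04 for laminins, and -0.36 for integrins. With the Lars2 share as a covariate, which was lowest in both 4 hr libraries, 6, 2, and 16 members passed at 16, 24, and 32 hr. The 2 that passed at 24 hr were Col1a2 and Itga3. The counts also fell by over 1.5 times without single libraries. They fell to 6, 11, and 12 at 16, 24, and 32 hr without vitC 4 hr, to 9 at 16 hr without vitC 16 hr, to 11 at 24 hr without 2i 24 hr or without vitC 24 hr, and to 13 at 32 hr without 2i 32 hr. The share of all genes called under these alternative fits is not given here. The losses can therefore not be read as particular to these genes.

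**Figure D2:**
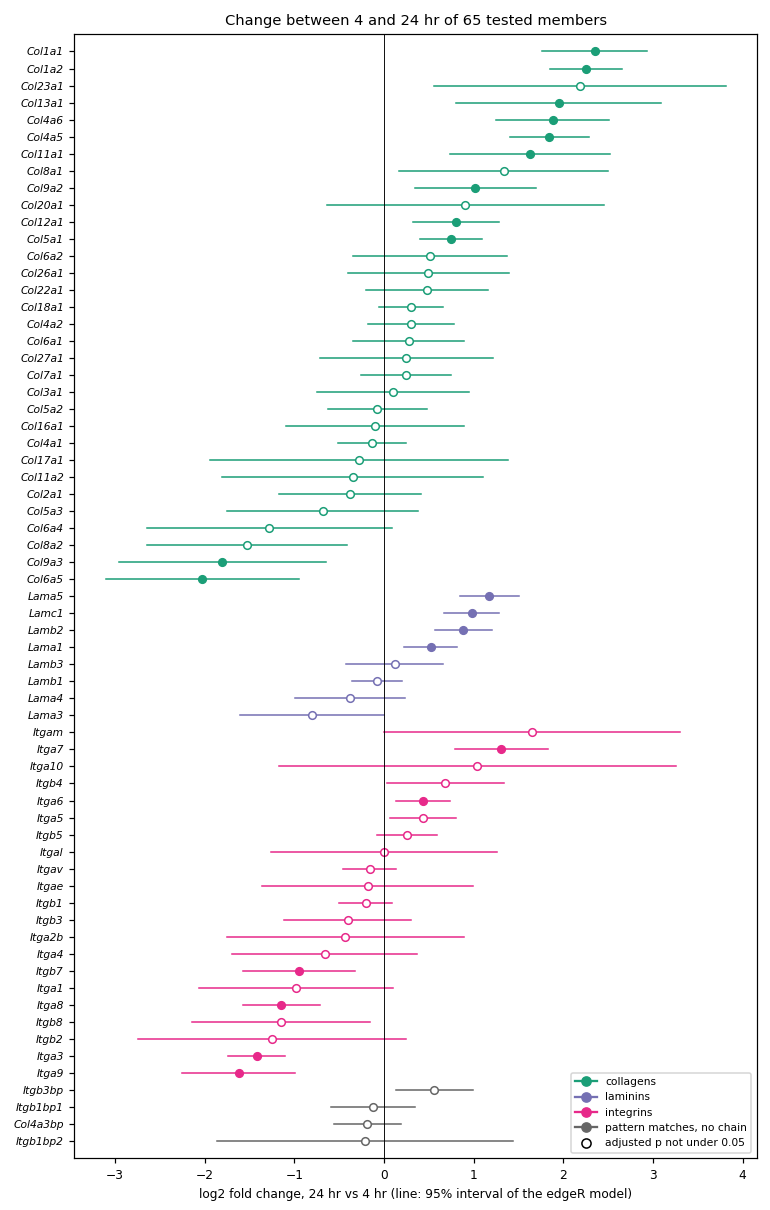
Change between 4 and 24 hr of 65 tested members, as the edgeR log2 fold change on the x axis, with 1 row per gene, colored and grouped by family, with filled points for members with an adjusted p-value under 0.05 and bars for 95% intervals of the fit. Col1a1 and Col1a2 lie farthest to the right among the abundant chains at 2.35 and 2.25, and Itga3 and Itga9 lie on the left at -1.42 and -1.62.

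Among the fibrillar collagens, both chains of type I collagen, the main fibril-forming collagen, rose. Col1a2 was at 49.7, 128, 197, and 172 CPM in 2i at 4, 16, 24, and 32 hr, and at 39.4, 169, 234, and 228 CPM with vitC. Both 4 hr libraries lay below all 6 later ones. Its log2 fold change against 4 hr was 1.71 at 16 hr, 2.25 at 24 hr (SE 0.19, edgeR adjusted p = 2.2e-05), and 2.14 at 32 hr. Col1a2 passed at all 3 times under all 16 alternatives run, which include each omission of a library and the Lars2 covariate.

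Col1a1 was at 50.7, 121, 154, and 104 CPM in 2i and at 47.6, 233, 419, and 165 CPM with vitC. Here too the 4 hr libraries were the lowest, but the vitC libraries at 16 and 24 hr stood far above their 2i counterparts, and those libraries also had the highest Lars2 shares. The log2 fold change was 1.72 at 16 hr, 2.35 at 24 hr (SE 0.27, edgeR adjusted p = 0.00020), and 1.36 at 32 hr. With the Lars2 share as a covariate the 24 hr value was 2.11, edgeR adjusted p = 0.064. The 32 hr call was lost without the 2i 32 hr library (log2 fold change 1.29, edgeR adjusted p = 0.063). The part of that share in the result was not tested.

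To show what lies upstream of a chain that rose this steadily, the 250 bases before the annotated start of Col1a2 are given from RefSeq (GRCm38.p6, chr6:4505368-4505617, plus strand), with CCAAT and GGGCGG, searched on both strands, in capitals:
Col1a2: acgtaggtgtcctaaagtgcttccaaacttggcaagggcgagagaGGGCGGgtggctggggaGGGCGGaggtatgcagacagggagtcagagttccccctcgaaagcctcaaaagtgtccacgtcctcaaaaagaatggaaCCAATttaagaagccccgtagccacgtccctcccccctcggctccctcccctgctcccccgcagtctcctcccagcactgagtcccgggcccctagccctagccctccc
CCAAT lies 109 bases before the start, and GGGCGG lies 205 and 188 bases before it. Among 32851 RefSeq promoters, 33.9% held CCAAT and 32.7% held GGGCGG in their upstream 250 bases. For the 68 promoters matched to 62 members the shares were 26.5% and 47.1%. Of the other motifs searched, TGANTCA was held by 6.75% of all promoters and 2.94% of those of members. For TATAAA the shares were 12.4% and 7.35%, and for the motif GGAATG they were 12.6% and 10.3%. A match of letters is a description and not a binding site.

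Of the other fibrillar chains, Col5a1, Col11a1, and Col5a3 passed at one or more times. Col5a1, a chain of type V collagen, which starts fibrils, was at 57.8, 70.8, 86.4, and 83.1 CPM in 2i and 56.8, 88.2, 107, and 72.9 CPM with vitC. It rose by 24 hr with a log2 fold change of 0.75 (edgeR adjusted p = 0.0070) and did not pass at 16 or 32 hr. The call was lost without the vitC 4 hr or vitC 24 hr library (log2 fold changes 0.61 to 0.65, edgeR adjusted p = 0.088 to 0.12) and with the Lars2 covariate (0.65, adjusted p = 0.33). Its exons overlap 2 counted genes of the opposite strand, and whether counting used the strand is not given in the sources used here, so that those reads cannot be told apart.

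Col11a1, a chain of type XI collagen known from cartilage, was counted 58, 91, 106, and 110 times in 2i and 23, 60, 36, and 162 times with vitC. In CPM it was at 3.37, 4.78, 8.30, and 8.16 and 1.72, 8.65, 7.72, and 13.5, lowest at 4 hr in both treatments. Its log2 fold change was 1.63 at 24 hr (edgeR adjusted p = 0.016) and 2.02 at 32 hr (0.0036). At 24 hr the call was lost without the 2i 24 hr, vitC 4 hr, or vitC 24 hr library (log2 fold changes 1.04 to 1.79, edgeR adjusted p = 0.059 to 0.15) and with the Lars2 covariate (0.30, adjusted p = 0.87). The 16 hr call, at 1.29 (edgeR adjusted p = 0.0499), was lost in 11 of 16 alternatives. At 32 hr it was lost without the vitC 32 hr library (log2 fold change 1.66, edgeR adjusted p = 0.065).

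The remaining fibrillar chains include Col3a1 and Col5a2, which pair with types I and V in tissues. Col5a2 lay between 9.09 and 12.5 CPM in all libraries, with a 24 hr log2 fold change of -0.07 (95% interval -0.62 to 0.48). Col3a1 was at 6.23, 4.89, 4.86, and 4.45 CPM in 2i and 4.25, 4.90, 6.86, and 9.58 CPM with vitC, and passed in no comparison. Thus Col1a1 and Col1a2 passed where Col3a1 did not, although the difference between them was not tested. Col5a3 was counted 60, 57, 27, and 9 times in 2i and 46, 19, 10, and 20 times with vitC, and its 32 hr log2 fold change was -1.61 (edgeR adjusted p = 0.034). This fall rests on few reads and was lost without the 2i 4 hr, 2i 24 hr, 2i 32 hr, vitC 4 hr, or vitC 24 hr library (log2 fold changes -1.79 to -1.02, edgeR adjusted p = 0.052 to 0.25), as well as with the Lars2 covariate (-1.64, adjusted p = 0.090) and after thinning (-1.34, adjusted p = 0.087).

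**Figure D3:**
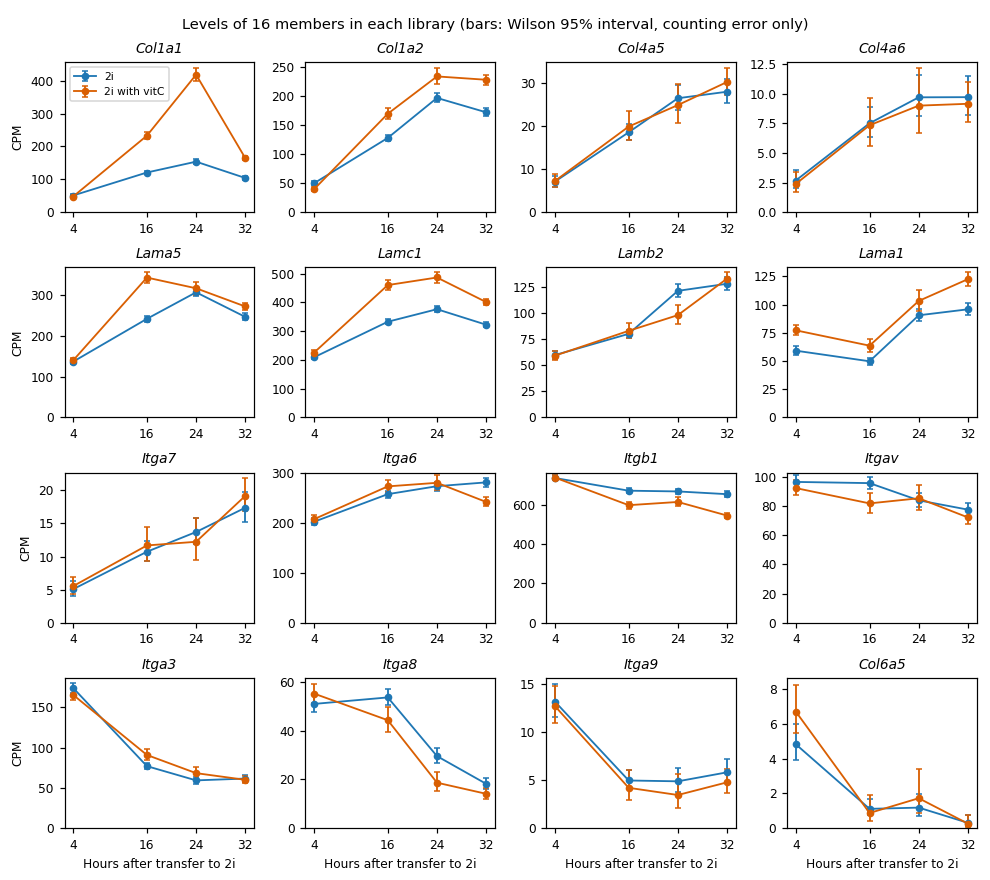
Level in CPM of 16 members at 4, 16, 24, and 32 hr, with 1 panel per gene, 1 line for 2i and 1 for 2i with vitC, points for single libraries, and bars for Wilson 95% intervals that cover counting error only. Col1a2, Col4a5, Lama5, and Lamc1 are lowest at 4 hr in both treatments, and Itga3 and Itga9 are highest there.

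In type IV collagen, the network of basement membranes, the 6 chains fell into separate pairs. Col4a1 and Col4a2, whose genes neighbor each other and whose chains form the common trimer, were the abundant pair and did not pass in any comparison. Col4a1 was at 147, 97.9, 119, and 100.1 CPM in 2i and 116, 137, 121, and 98.0 CPM with vitC, with a 24 hr log2 fold change of -0.14 (95% interval -0.52 to 0.24). Col4a2 was at 71.2, 49.1, 75.3, and 64.2 CPM in 2i and 56.3, 89.5, 83.2, and 66.1 CPM with vitC, with a 24 hr log2 fold change of 0.30 (95% interval -0.18 to 0.78). The upper bounds were below a log2 change of 1 for both genes. Col4a3 and Col4a4 had at most 3 counts in any library.

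By contrast, Col4a5 and Col4a6, the chains that join in a rarer trimer, rose together. Col4a5 was at 7.10, 18.6, 26.5, and 28.0 CPM in 2i and 7.24, 19.9, 24.9, and 30.2 CPM with vitC. Its log2 fold change was 1.42 at 16 hr, 1.84 at 24 hr (SE 0.20, edgeR adjusted p = 0.00016), and 2.02 at 32 hr. Col4a6 was at 2.68, 7.52, 9.71, and 9.72 CPM in 2i and 2.39, 7.35, 9.01, and 9.16 CPM with vitC, from 32 to 143 counts. Its log2 fold changes at the same times were 1.55, 1.88 (SE 0.29, edgeR adjusted p = 0.0012), and 1.89. For both genes the treatments nearly coincided at each time, and the 4 hr libraries lay below all others. Among 16 alternatives, the 24 hr calls were lost only with the Lars2 covariate, at 1.71, edgeR adjusted p = 0.070 for Col4a5 and 1.79, edgeR adjusted p = 0.18 for Col4a6.

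These 2 genes lie head to head on the X chromosome, and their RefSeq starts are 1343 bases apart. The 250 bases before each start are shown because the pair moved together (GRCm38.p6, chrX:141475169-141475418, plus strand, for Col4a5 and chrX:141474077-141474326, minus strand, for Col4a6, CCAAT and GGGCGG of either strand in capitals):
Col4a5: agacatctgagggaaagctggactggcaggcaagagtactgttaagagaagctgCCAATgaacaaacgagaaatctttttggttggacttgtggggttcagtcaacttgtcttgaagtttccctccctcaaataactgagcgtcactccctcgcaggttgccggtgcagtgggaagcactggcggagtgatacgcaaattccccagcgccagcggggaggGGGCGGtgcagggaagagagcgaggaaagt
Col4a6: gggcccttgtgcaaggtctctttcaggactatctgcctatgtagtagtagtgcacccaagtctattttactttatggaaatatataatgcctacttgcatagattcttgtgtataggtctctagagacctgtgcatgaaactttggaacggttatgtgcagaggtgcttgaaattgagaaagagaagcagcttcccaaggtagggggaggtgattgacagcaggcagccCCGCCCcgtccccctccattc
The Col4a5 stretch holds CCAAT 196 bases and GGGCGG 30 bases before the start. That of Col4a6 holds GGGCGG, as its reverse complement, 21 bases before the start and no CCAAT, which says only that these letters are not in this window.

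The balance within type IV was also compared per length. The RPKM ratio of Col4a1 to Col4a5 was 18.6, 4.75, 4.04, and 3.22 in 2i at the successive times and 14.4, 6.20, 4.36, and 2.92 with vitC. The 4 hr ratios were the highest in both treatments. Among the markers of primitive and parietal endoderm, cells that make much type IV collagen and laminin, 9 were tested. Of them Dab2 and Pdgfra rose and Amn fell by 24 hr, where 11.5% of all genes rose and 8.98% fell. By 32 hr 3 rose and 3 fell, where 13.5% of all genes rose and 11.8% fell. Their summed level was 21.4 to 25.7 CPM at 4 hr and 25.5 to 41.4 CPM later, and none of the 12 was at 0 in all libraries. Their part in the collagen and laminin results was not tested.

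Further collagens outside these types were mostly low. Col18a1, a basement membrane collagen whose end is released as endostatin, was at 265, 252, 337, and 299.8 CPM in 2i and 259, 367, 308, and 299 CPM with vitC, with a 24 hr log2 fold change of 0.30 (95% interval -0.06 to 0.66) that did not pass. Col12a1, which decorates fibrils, was at 17.3, 17.1, 25.9, and 18.2 CPM in 2i and 12.5, 20.8, 26.4, and 17.5 CPM with vitC. It was highest at 24 hr in both treatments, where its log2 fold change was 0.80 (edgeR adjusted p = 0.023), and the call was lost in 6 of 16 alternatives. These were omission of the 2i 24 hr, vitC 4 hr, or vitC 24 hr library (log2 fold changes 0.54 to 0.86, edgeR adjusted p = 0.10 to 0.22) and the fits after the GC and length correction (0.46, adjusted p = 0.13), with the Lars2 covariate (0.35, adjusted p = 0.73), and after thinning (0.58, adjusted p = 0.11).

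Col13a1, a transmembrane collagen, was counted 31, 76, 58, and 100 times in 2i and 5, 21, 16, and 29 times with vitC. Its log2 fold changes at 16, 24, and 32 hr were 1.78, 1.95, and 2.16 (edgeR adjusted p = 0.035, 0.022, and 0.0084). These calls were lost in 8 of 15, 5 of 15, and 4 of 15 alternatives. The 16 hr call was lost without the 2i 16 hr, 2i 32 hr, vitC 4 hr, vitC 16 hr, or vitC 32 hr library (log2 fold changes 1.32 to 2.36, edgeR adjusted p = 0.054 to 0.18). The 24 hr call was lost without the 2i 24 hr, vitC 4 hr, or vitC 24 hr library (log2 fold changes 1.49 to 2.51, edgeR adjusted p = 0.055 to 0.15), and the 32 hr call without the 2i 32 hr or vitC 4 hr library (log2 fold changes 1.69 to 1.74, edgeR adjusted p = 0.058 to 0.16). With the Lars2 covariate the 16 and 24 hr values were 1.49, edgeR adjusted p = 0.19 and 1.35, edgeR adjusted p = 0.55. Col23a1, also transmembrane, had 15, 39, 27, and 32 counts in 2i and 1, 16, 11, and 24 with vitC, so that its 32 hr log2 fold change of 2.18 (edgeR adjusted p = 0.043) rests on a single read at 4 hr with vitC. It was lost in 9 of 15 alternatives, among them omission of the 2i 24 hr, 2i 32 hr, vitC 4 hr, vitC 24 hr, or vitC 32 hr library (log2 fold changes 1.31 to 2.31, edgeR adjusted p = 0.057 to 0.21).

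Chains of type IX collagen, a partner of cartilage fibrils, went in opposite directions. Col9a2 was at 5.53, 4.99, 12.1, and 10.1 CPM in 2i and 4.33, 6.63, 7.72, and 7.66 CPM with vitC, with a 24 hr log2 fold change of 1.02 (edgeR adjusted p = 0.037). Col9a3 was counted 64, 31, 17, and 14 times in 2i and 59, 8, 4, and 17 times with vitC, with a 24 hr value of -1.80 (0.031). The Col9a3 exons share 234 bases with Tcfl5 and the rise of Col9a2 was lost in 10 of 16 alternatives, among them the GC and length correction (0.89, edgeR adjusted p = 0.059). Without single libraries the call of Col9a2 was lost for the 2i 4 hr, 2i 24 hr, 2i 32 hr, vitC 4 hr, vitC 24 hr, or vitC 32 hr library (log2 fold changes 0.71 to 1.23, edgeR adjusted p = 0.058 to 0.34) and that of Col9a3 for the 2i 4 hr, 2i 24 hr, vitC 4 hr, or vitC 24 hr library (log2 fold changes -2.27 to -1.55, edgeR adjusted p = 0.068 to 0.24). The latter was lost with the Lars2 covariate (-1.49, adjusted p = 0.57) and after thinning (-1.66, adjusted p = 0.11) too.

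The largest fall belonged to Col6a5, a minor chain of type VI collagen. It was counted 83, 21, 15, and 4 times in 2i and 90, 6, 8, and 3 times with vitC, so that at 32 hr both libraries were near the floor of 3 counts. The log2 fold changes at 16, 24, and 32 hr were -2.45, -2.03, and -4.33 (edgeR adjusted p = 0.0068, 0.014, and 0.00034). Only the 32 hr call held under every alternative that kept the gene, and the 24 hr call was lost without the 2i 24 hr, vitC 4 hr, or vitC 24 hr library (log2 fold changes -2.22 to -1.79, edgeR adjusted p = 0.11 to 0.15) and with the Lars2 covariate (-1.20, adjusted p = 0.63). Col6a1, the chain common to type VI trimers, stayed between 6.34 and 9.01 CPM (24 hr log2 fold change 0.28, 95% interval -0.34 to 0.90), Col7a1, the collagen of skin anchoring fibrils, between 23.8 and 41.8 CPM (24 hr log2 fold change 0.25, 95% interval -0.26 to 0.75), and Col22a1 between 3.58 and 7.52 CPM (24 hr log2 fold change 0.48, 95% interval -0.20 to 1.16). None of these 3 passed.

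Laminins are secreted as trimers of an alpha, a beta, and a gamma chain. Lama5, Lamc1, and Lamb2 were above 4 hr from 16 hr on, and Lama1 from 24 hr on. Lama5, the alpha chain of the laminin on which pluripotent cells are commonly grown, was at 137, 242, 307, and 247 CPM in 2i and 140.0, 343, 317, and 272 CPM with vitC. All 6 later libraries lay above both 4 hr libraries. Its log2 fold change was 1.06 at 16 hr, 1.17 at 24 hr (SE 0.15, edgeR adjusted p = 0.00041), and 0.90 at 32 hr, and of these calls the 24 hr one was lost with the Lars2 covariate (0.77, edgeR adjusted p = 0.17).

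Lamc1, the gamma chain of nearly all embryonic laminins, was at 209, 333, 376, and 322 CPM in 2i and 225, 460.3, 487, and 401 CPM with vitC. The 4 hr libraries were again the lowest of each treatment. The log2 fold change was 0.85 at 16 hr, 0.98 at 24 hr (SE 0.14, edgeR adjusted p = 0.00078), and 0.72 at 32 hr. Without vitC 4 hr the 16 and 32 hr calls were lost (edgeR adjusted p = 0.055 for both), and with the Lars2 covariate the 24 hr call was (0.77, edgeR adjusted p = 0.17).

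The beta chains parted. Lamb1, the beta chain of early embryonic laminin, was at 184, 163, 177, and 168 CPM in 2i and 171, 158, 159.6, and 166 CPM with vitC, with a 24 hr log2 fold change of -0.08 (95% interval -0.36 to 0.20). Lamb2, its counterpart in kidney and neuromuscular basement membranes, was at 59.9, 80.3, 122, and 128 CPM in 2i and 59.3, 83.2, 98.2, and 133 CPM with vitC. It was higher at each successive time in both treatments, with log2 fold changes of 0.45, 0.89 (SE 0.15), and 1.14 (edgeR adjusted p = 0.049, 0.0016, and 0.00023). The 16 hr call was marginal and was lost in 14 of 16 alternatives, and the 24 hr call was lost with the Lars2 covariate (0.68, adjusted p = 0.25). In RPKM, the ratio of Lamb1 to Lamb2 was 1.89, 1.24, 0.892, and 0.804 in 2i and 1.77, 1.17, 0.996, and 0.764 with vitC. Per length, Lamb1 was thus above Lamb2 at 4 hr and below it at 32 hr in both treatments. At 24 hr it was below Lamb2 in 2i and level with it with vitC. This crossing rests on the exon lengths used, 9917 bases for Lamb1 and 6082 for Lamb2, merged over all annotated transcripts. In CPM, Lamb1 was above Lamb2 in every library.

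Lama1, the alpha chain of the first laminin of the embryo, was at 59.1, 49.7, 90.4, and 95.8 CPM in 2i and 77.1, 63.6, 103, and 122 CPM with vitC. It was lowest at 16 hr and highest at 32 hr in both treatments. Its log2 fold change was -0.27 at 16 hr, which did not pass, 0.52 at 24 hr (edgeR adjusted p = 0.018), and 0.68 at 32 hr (0.0034). The 24 hr call was lost after the GC and length correction (0.25, adjusted p = 0.20), without the treatment term (0.50, adjusted p = 0.11), and with the Lars2 covariate (0.46, adjusted p = 0.43), and without the 2i 4 hr, 2i 24 hr, vitC 4 hr, or vitC 24 hr library (log2 fold changes 0.43 to 0.60, edgeR adjusted p = 0.084 to 0.17), whereas the 32 hr call was kept in all 16 alternatives. The RPKM ratio of Lama5 to Lama1 was 1.97, 4.14, 2.89, and 2.19 in 2i and 1.54, 4.59, 2.61, and 1.89 with vitC, with its peak at 16 hr in both.

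Lama3 and Lamb3, chains known from epithelial laminin, did not pass. Lamb3 stayed between 10.1 and 14.5 CPM (24 hr log2 fold change 0.12, 95% interval -0.42 to 0.66). Lama3 was at 9.60, 4.36, 4.15, and 7.79 CPM in 2i and 10.6, 13.5, 8.36, and 8.58 CPM with vitC (24 hr log2 fold change -0.80, edgeR adjusted p = 0.14), higher with vitC at each time. Lama4, an alpha chain of vessel walls, ranged from 11.6 to 20.6 CPM (24 hr log2 fold change -0.38, 95% interval -0.99 to 0.23).

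Among the laminin-binding integrins, the balance of the alpha chains changed. Itga3, which pairs with Itgb1 and binds Lama5-containing laminin, was at 174, 76.9, 59.2, and 61.5 CPM in 2i and 166, 90.8, 68.2, and 59.9 CPM with vitC. Both 4 hr libraries stood above all 6 later ones. Itga3 fell with log2 fold changes of -1.03, -1.42 (SE 0.15, edgeR adjusted p = 9.4e-05), and -1.49 at 16, 24, and 32 hr. All 3 calls held under all 16 alternatives.

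Itga6, the laminin receptor chain most used by ESCs, was at 202, 257, 273, and 281 CPM in 2i and 207, 273, 280.1, and 242 CPM with vitC. Its 24 hr log2 fold change of 0.43 was at the edge of the threshold (edgeR adjusted p = 0.042), and was lost in 9 of 16 alternatives, such as the GC and length correction (0.20, edgeR adjusted p = 0.27). Omissions that ended it were those of the 2i 4 hr, 2i 24 hr, 2i 32 hr, vitC 4 hr, vitC 24 hr, or vitC 32 hr library (log2 fold changes 0.40 to 0.47, edgeR adjusted p = 0.055 to 0.24). Even so, the RPKM ratio of Itga6 to Itga3 was 0.734, 2.12, 2.92, and 2.89 in 2i and 0.792, 1.90, 2.60, and 2.55 with vitC. Itga3 was thus the more abundant per length at 4 hr and Itga6 at each later time in both treatments. This change of order rests on the merged exon lengths, 5710 bases for Itga3 and 9025 for Itga6. In CPM, Itga6 was above Itga3 in every library.

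Itga7, a laminin receptor chain known from muscle, was at 5.06, 10.7, 13.7, and 17.4 CPM in 2i and 5.52, 11.7, 12.2, and 19.2 CPM with vitC, from 57 to 234 counts. It was higher at each successive time in both treatments. The log2 fold changes were 1.08, 1.31 (SE 0.24), and 1.79 (edgeR adjusted p = 0.011, 0.0030, and 0.00027). At 32 hr the call held in all 16 alternatives, at 24 hr it was lost without the 2i 24 hr library (log2 fold change 1.14, edgeR adjusted p = 0.0504) and with the Lars2 covariate (1.17, adjusted p = 0.28), and at 16 hr without the 2i 4 hr or vitC 4 hr library (log2 fold changes 1.03 to 1.11, edgeR adjusted p = 0.051 to 0.065) and with the Lars2 covariate (1.00, adjusted p = 0.095). Its exons share 9 bases with Mettl7b of the opposite strand.

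Of the alpha chains that bind fibronectin and other RGD-containing ligands, Itga8 alone passed. Itgb1 was at 736, 671, 668, and 654 CPM in 2i and 738, 598, 614, and 545 CPM with vitC, with a 24 hr log2 fold change of -0.20 (95% interval -0.50 to 0.09). Itgav, the partner of several beta chains, was at 96.6, 95.8, 83.9, and 77.6 CPM in 2i and 92.4, 81.9, 85.4, and 72.2 CPM with vitC (24 hr log2 fold change -0.16, 95% interval -0.46 to 0.14). Neither passed in any comparison, although the interval of Itgb1 at 32 hr lay below 0 (-0.60 to -0.01).

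Itga5, the fibronectin receptor chain, was at 35.4, 39.8, 41.9, and 46.0 CPM in 2i and 34.4, 54.5, 53.4, and 49.4 CPM with vitC. Its 24 hr log2 fold change was 0.43 (95% interval 0.06 to 0.80, edgeR adjusted p = 0.093), positive but not past the threshold. Itgb5, a beta partner of Itgav, was at 48.7, 62.0, 60.3, and 58.3 CPM in 2i and 51.1, 53.0, 58.5, and 68.1 CPM with vitC (24 hr log2 fold change 0.25, 95% interval -0.08 to 0.59). Itgb3, the other well-known partner, ranged from 4.50 to 9.66 CPM (24 hr log2 fold change -0.40, 95% interval -1.11 to 0.31), and Itgb4, the partner of Itga6 in epithelia, from 5.27 to 11.6 CPM (24 hr log2 fold change 0.68, 95% interval 0.03 to 1.34).

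Itga8, which pairs with Itgb1 and binds nephronectin, fell late. It was at 51.1, 53.8, 29.6, and 18.2 CPM in 2i and 55.4, 44.4, 18.7, and 14.1 CPM with vitC. The 4 and 16 hr libraries were at like levels and the 24 and 32 hr libraries lay below them in both treatments. Its log2 fold change was -0.13 at 16 hr, -1.15 at 24 hr (SE 0.20, edgeR adjusted p = 0.0022), and -1.74 at 32 hr (0.00012). The 24 hr call was lost with the Lars2 covariate only (-1.04, edgeR adjusted p = 0.23). Its exons share 372 bases with E030013I19Rik of the opposite strand, whose reads may not be told apart from its own.

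Itga9, a tenascin receptor chain, fell early. It was at 13.2, 4.94, 4.86, and 5.79 CPM in 2i and 12.7, 4.18, 3.43, and 4.75 CPM with vitC, from 16 to 226 counts, with both 4 hr libraries the highest. Its log2 fold changes were -1.51, -1.62 (SE 0.29), and -1.30 (edgeR adjusted p = 0.0048, 0.0027, and 0.0047). The 32 hr call was lost without the 2i 32 hr, vitC 4 hr, or vitC 32 hr library (log2 fold changes -1.33 to -1.16, edgeR adjusted p = 0.0505 to 0.054), and the 16 hr call without the vitC 4 hr library (log2 fold change -1.38, edgeR adjusted p = 0.051). The 16 and 24 hr calls were also lost with the Lars2 covariate (-1.48, edgeR adjusted p = 0.054 and -1.57, edgeR adjusted p = 0.25). Of 4 tested trophoblast markers 2 fell by 24 hr and none rose, where 8.98% of all genes fell. The 24 hr log2 fold change was -1.91 for Cdx2 (edgeR adjusted p = 0.0042) and -1.35 for Ascl2 (0.022). Hand1 and Gata3, which did not pass, went the other way, with 0.97 and 1.13. None of the 5 markers was at 0 throughout. Their part in the falls of Itga3, Itga8, and Itga9 was not tested.

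Chains known from lymphocytes and other leukocytes were low and fell where they passed. Itgb7 was at 11.3, 7.36, 6.26, and 6.38 CPM in 2i and 11.1, 4.76, 5.36, and 6.66 CPM with vitC, with a 24 hr log2 fold change of -0.95 (edgeR adjusted p = 0.036) that was lost in 8 of 16 alternatives, among them omission of the 2i 4 hr, 2i 24 hr, vitC 4 hr, or vitC 24 hr library (log2 fold changes -1.07 to -0.85, edgeR adjusted p = 0.068 to 0.19). Itgb2 was counted 30, 10, 13, and 6 times in 2i and 44, 2, 5, and 2 times with vitC, with a 32 hr value of -2.96 (0.014), lost without the vitC 4 hr or vitC 32 hr library (log2 fold changes -2.26 to -2.21, edgeR adjusted p = 0.13 for both) and with the Lars2 covariate (-2.30, adjusted p = 0.11) and after thinning (-2.63, adjusted p = 0.065). The 16 hr calls of Itgb7 and Itgb2 were lost in 12 of 16 and 9 of 15 alternatives. Leukocyte markers summed to 14.6 and 19.0 CPM at 4 hr and to 9.35 to 14.6 CPM later, with Cd48 at no more than 3 counts in any library, and their part was not tested.

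Of the collagen receptors, Itga1 was counted 59, 50, 29, and 9 times in 2i and 67, 14, 8, and 18 times with vitC. Its 32 hr log2 fold change was -1.97 (edgeR adjusted p = 0.015), and was lost without the 2i 32 hr or vitC 4 hr library (log2 fold changes -1.72 to -1.48, edgeR adjusted p = 0.12 to 0.14) and with the Lars2 covariate (-1.82, adjusted p = 0.071). Itga2, the other major collagen receptor chain, had at most 6 counts in a library, Itga11 at most 11, and Itga10, which passed in no comparison, at most 20. The rise of type I collagen transcripts was seen beside collagen-binding integrin chains near the limit of detection or, for Itga1 at 32 hr, lower than at 4 hr. This does not extend to collagen receptors outside the integrins, of which Ddr1 was at 30.2 to 54.6 CPM.

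Within lane 7, 32 hr was compared with 16 hr, and 2 members passed, against 0.583% of all genes. Lama1 rose, with a log2 fold change of 0.95 (SE 0.14, edgeR adjusted p = 0.010), and Itga8 fell, with -1.61 (SE 0.20, 0.0038). Without the treatment term Lama1 was lost (0.95, edgeR adjusted p = 0.13). Leaving out single libraries ended the call of Lama1 for the 2i 16 hr, 2i 32 hr, or vitC 32 hr library (log2 fold changes 0.92 to 0.97, edgeR adjusted p = 0.10 to 0.27) and that of Itga8 for the 2i 32 hr or vitC 32 hr library (log2 fold changes -1.67 to -1.54, edgeR adjusted p = 0.16 to 0.27).

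To ask what vitC added, the treatments were compared with time as a block. No member passed, whereas 0.167% of all genes tested, 25 genes, did (0.107% higher and 0.0603% lower with vitC). DESeq2 called 0 members as well. An unadjusted edgeR p under 0.05 was found for 7 of the 66 members and for 2062 of all 14931 genes tested. The share was thus no larger among the members than among all genes. The largest of the differences at high counts was that of Col1a1, with a log2 fold change of 0.75 for vitC over 2i (SE 0.18, 95% interval 0.36 to 1.15, edgeR unadjusted p = 0.0013, adjusted p = 0.091). At 4 hr the vitC library was slightly below 2i (47.6 against 50.7 CPM), and at 16, 24, and 32 hr it was above.

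Col1a1 did pass in some settings. The adjusted p-value was 1.8e-08 without the filter on low counts, 0.040 after thinning all libraries to the same total, 0.0053 without 2i 4 hr, and 0.0084 without vitC 4 hr, with log2 fold changes of 0.75, 0.81, 1.02, and 1.02 (edgeR). Without the filter Col13a1 (-1.09, adjusted p = 0.029) and Lama3 (0.69, adjusted p = 0.047) passed too. Col1a2, the partner of Col1a1 in type I collagen, differed by 0.19 (95% interval -0.08 to 0.46, edgeR adjusted p = 0.54). The share of Lars2 features was higher with vitC than in 2i at 16, 24, and 32 hr. With that share as a covariate Col1a1 did not pass for vitC, and the part of the share in its value was not tested.

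Of the 9 tested laminins 5 had positive and 4 negative differences, with a median of 0.03, and all 3 beta chains were negative. None passed. Lama1 differed by 0.32 (95% interval 0.11 to 0.53, edgeR adjusted p = 0.15), Lamc1 by 0.32 (0.10 to 0.53, 0.16), and Lama5 by 0.18 (-0.05 to 0.41, 0.49). These 3 were higher with vitC at each of the 4 times, as were Col6a4, Col8a1, Itgb3bp, and Lama3. Another 8 members were lower at each time, among them Col13a1, Col4a6, Itga9, and Lamb1, and 51 were mixed. No member's vitC effect changed with hours by the test of a linear term (0 calls, against 0.0% of all genes, with 431 of 14931 genes at an unadjusted edgeR p under 0.05).

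**Figure D4:**
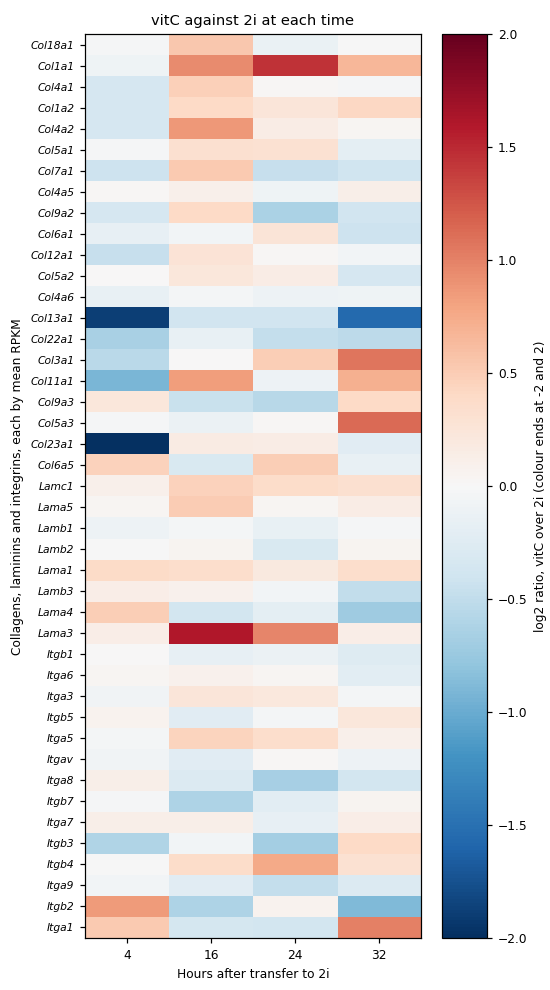
Log2 ratio of the vitC to the 2i library at 4, 16, 24, and 32 hr for 43 chains, with red for higher and blue for lower with vitC and the color scale ending at 2 in either direction. Col1a1 turns from slightly blue at 4 hr to red at the later times, Lama1 and Lamc1 are pale red throughout, and Col13a1 is blue throughout.

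The machinery around these chains was examined through gene lists that were chosen with earlier results of these data known. The list of enzymes that hydroxylate collagen, the step that needs vitC, also holds proteins that are not themselves hydroxylases, such as P3h4. Of its 12 tested genes, P3h4 fell by 24 hr and none rose, 8.33% beside 20.5% of all genes called. At 32 hr P3h1 alone passed, 8.33% beside 25.3% of all genes. It was higher than at 4 hr, with a log2 fold change of 0.71 (edgeR adjusted p = 0.013). With vitC none of the 12 passed, and their median log2 difference was -0.25, beside -0.02 over all genes. Among 13 tested genes for collagen folding, processing, and crosslinking, 2 rose (Colgalt1, which adds galactose to collagen, and Loxl1) and 2 fell (Pcolce2 and Loxl4) by 24 hr, 30.8% beside 20.5% of all genes. Alternatives were applied to these lists after the data had been seen. With the Lars2 covariate neither list held a call at 24 hr. Serpinh1, the collagen chaperone, was at 319.8, 414, 498, and 511 CPM in 2i and 248, 335, 290.2, and 394 CPM with vitC, and passed at 32 hr only (log2 fold change 0.67, edgeR adjusted p = 0.0062).

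Of 15 tested other proteins of basement membrane and matrix, 9 rose and none fell by 24 hr, with a median log2 fold change of 0.75, where 11.5% of all genes rose. With the Lars2 covariate none of the 15 passed at 24 hr, with a median of 0.74. Without vitC 4 hr 6 passed, as without vitC 24 hr, and without 2i 24 hr 7 did. Fibronectin (Fn1), the ligand of Itga5 and Itgav, was at 202, 321, 519, and 451 CPM in 2i and 215, 696, 979.9, and 559 CPM with vitC, and its 24 hr log2 fold change was 1.76 (edgeR adjusted p = 0.00033). It was higher with vitC at each of the 4 times. Nid2, the nidogen that ties laminin to type IV collagen, rose by 0.86 on the log2 scale (edgeR adjusted p = 0.0014), Agrn by 0.75 (0.0024), and Frem2 by 1.18 (0.00032). Nid1, Hspg2, Tnc, Fbln1, and Fras1 made up the rest of the 9.

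Of 20 tested adaptors and kinases that link integrins to actin, 2 rose (Tln2 and Tns1) and 2 fell (Fermt1 and Vcl) by 24 hr. The called share of the list, 4 of 20, was no larger than the 20.5% of all genes. None passed with the Lars2 covariate, without vitC 4 hr, or without vitC 24 hr, and the log2 fold change of Vcl, vinculin, was -0.41 with all libraries (edgeR adjusted p = 0.049). Of 9 other matrix receptors 2 rose and 3 fell by 24 hr, where 11.5% of all genes rose and 8.98% fell. None of the 9 passed with the Lars2 covariate, and Dag1 alone did without 2i 24 hr, without vitC 4 hr, or without vitC 24 hr. Dag1, the laminin-binding dystroglycan, rose by 1.07 on the log2 scale (edgeR adjusted p = 0.0015), as did Sdc2, and the collagen receptor Ddr1 fell together with Sdc1 and Sdc4. Among fibroblast and mesenchyme markers, cells that make much type I collagen, 2 of 6 tested, Pdgfrb and Postn, rose by 24 hr, where 11.5% of all genes rose. Thy1 was at -0.06 at 24 hr and fell by 32 hr (log2 fold change -1.80, edgeR adjusted p = 0.016), and Twist2, which did not pass, had values of -1.31 at 24 hr and -2.04 at 32 hr. Postn was at 0.989, 2.21, 7.75, and 4.16 CPM in 2i and 0.970, 1.73, 9.01, and 14.6 CPM with vitC. The summed level of these 8 markers was 18.4 and 19.2 CPM at 4 hr and 22.8 to 37.7 CPM later, with Fap at most at 1 count and Lum at most at 4. Their part in the rise of type I collagen was not tested.

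The 5 genes that share the spelling alone were mostly at moderate levels. Col4a3bp, the ceramide transfer protein, was at 66.8, 64.6, 58.7, and 64.9 CPM in 2i and 70.2, 63.1, 62.2, and 44.8 CPM with vitC. Itgb3bp, a centromere protein, ranged from 14.2 to 27.9 CPM, and Itgb1bp1, which binds the tail of Itgb1, from 12.0 to 15.5 CPM. None of the 4 that were tested passed in any comparison, and Itgbl1 had at most 3 counts.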

How the data were processed

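The authors depleted ribosomal RNA, sequenced 50-base single reads, and deposited raw counts per Ensembl gene, without normalization, in 1 table per library. The submitters' processing notes name GSNAP, HTSeq, and build NCBIM37 (mm9). Strand use in counting is not given in the sources used here.

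Identifiers were paired with names, biotypes, exon lengths, and GC content of GENCODE M21 (32604 of 37263 found). The exon overlaps between genes were also found from its coordinates, whereas the reads were counted on NCBIM37, so that the overlaps in counting may differ. The members and lists were chosen with earlier results of these data known. Letters after the root were read in either case, which added 5 members (Itgav, Itgam, Itgax, Itgad, and Itgae) to 82. The 14931 genes that reached 1 CPM in 2 or more libraries were tested with edgeR 4.0.16 in R 4.3.3, by TMM scaling, the quasi-likelihood test, and Benjamini-Hochberg adjustment over all genes (threshold 0.05). Models held time and treatment, and, to let the effect of vitC vary with hours, a linear term (2 residual degrees of freedom). The code was tested on simulated counts. With 1 library per combination, p-values do not measure a spread between cultures. The Wilson intervals of levels and the floors cover counting error only. The intervals of fold changes come from the edgeR fit and carry the error of that fit. The reads carry no molecular identifiers and may be copies of 1 molecule. Levels per length are RPKM computed from the deposited counts and exon lengths, merged over all annotated transcripts of a gene. Which transcripts were present was not examined, so that the order of genes per length depends on these lengths.

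Members were named if they passed in any of 6 comparisons or were tested with a mean of at least 5 CPM (47 members, of which 1 is not reported here). Others are examples by highest or lowest counts or by the direction of their changes. Alternatives were RLE size factors, DESeq2 1.42.0, other filters, a GC and length correction, the Lars2 share as a covariate, thinning to 4753528 counts, models without the treatment term or time block, and omission of each library. No 2 libraries held identical values.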

Additional observations from a re-analysis of the deposited data

Results flagged for a closer look

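Col3a1, the chain of type III collagen, went down after 4 hr in every 2i library and up in every vitC library. It was flagged for this opposite movement, which was not particular to it. Against 4 hr, its log2 ratio of CPM (prior count of 2) was -0.34, -0.35, and -0.47 in 2i and 0.20, 0.67, and 1.14 with vitC at 16, 24, and 32 hr. The change from 4 to 32 hr thus differed by 1.61 between treatments on the log2 scale. It includes the difference at 4 hr, where the log2 ratio of vitC to 2i was -0.53, and at 32 hr that ratio was 1.08. The counts behind this were 107, 93, 62, and 60 in 2i and 57, 34, 32, and 115 with vitC. The difference was not tested in this form. The linear change of the vitC effect with hours had an unadjusted p of 0.014 and an adjusted p of 1.0 (edgeR), so that it failed the correction. Col27a1 and Col16a1, also low in counts, moved in the same opposite way at 16, 24, and 32 hr. The log2 ratios of Col27a1 were -0.55, -0.19, and -1.11 in 2i and 1.11, 0.89, and 0.75 with vitC. Those of Col16a1 were -0.53, -0.48, and -0.85 in 2i and 1.09, 0.50, and 1.03 with vitC.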

How the results depend on the processing

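No call of a named member reversed its direction in any alternative. Of 58 calls, 56 were kept with RLE size factors, 54 with DESeq2, 51 after the GC and length correction, 46 after thinning, 45 without the treatment term, and 25 with the Lars2 covariate, which is lowest in both 4 hr libraries. Counts of members called moved by over 1.5 times in these settings. At 16 hr against 4 hr, 6 passed with the Lars2 covariate and 6 to 13 with single libraries left out. At 24 hr, 2 passed with that covariate and 11 to 22 with libraries left out. At 32 hr, 13 passed with a minimum of 5 CPM and 12 to 25 with libraries left out. For 32 hr against 16 hr, 1 passed without the treatment term, and 0 to 2 with libraries left out. For vitC, 3 passed without a filter on low counts, 1 after thinning, and 0 to 1 with libraries left out. In the test of a vitC effect that varies with hours, 0 passed with any library left out. Shares of all genes called in these settings are not given here, so that the moves cannot be read as particular to the members. Apart from the filters and omissions, which change what is tested, the cause was not tested. The labels carry no replicate numbers, and the vitC comparison was paired by time. Without that pairing 0 members passed. At low counts, such as those of Col23a1, Itgb2, and Col6a5, the depth of the vitC libraries limits what can be seen.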

Other observations

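The 2 chains of type I collagen, which assemble as 2 Col1a1 chains to 1 Col1a2 chain, were not counted in a fixed proportion. The ratio of their RPKM, Col1a1 over Col1a2, was 1.93, 1.79, 1.48, and 1.15 in 2i at 4, 16, 24, and 32 hr, and 2.29, 2.60, 3.39, and 1.37 with vitC. It was lowest at 32 hr in both treatments and highest at 24 hr with vitC. The GC content of the longest transcript was 58.9% for Col1a1 and 55.7% for Col1a2. The absolute value of this ratio depends on the merged exon lengths, 6563 bases for Col1a1 and 12426 for Col1a2, whereas its changes between libraries do not. The ratio was not tested.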
